A study of Drosophila melanogaster with 48 samples.

Results

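The messages carried by 2 to 3 ribosomes were compared with those carried by a single ribosome in Drosophila melanogaster testes 48 h after a heat shock. The members were chosen by their labels: both libraries of the 2-3 ribosomes pool and both libraries of the 80S pool at that time, 4 of the 48 samples of the series. The series followed testes over a time course, with 3′ end sequencing of whole lysates and of 6 pools from polysome gradients at 24 h, 48 h and 72 h. All flies of both groups had the genotype bam-/-;hsBam, were grown at 22 °C, received 30 min at 37 °C as pupae and were then kept at 25 °C, so no unshocked or wild-type sample enters the comparison. Each pool joined gradient fractions by their absorbance: free RNA, the 40S and the 60S position, the 80S position, then messages with 2-3 and with 4+ ribosomes. The labels call the replicates biological and do not say how many animals each held. The p-values therefore measure only the spread between samples, which the main test estimates over all 36 fraction libraries.

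Bam is the switch that lets Drosophila male germ cells stop dividing as spermatogonia and become spermatocytes. In bam mutants the cells keep dividing, and a pulse of Bam from a heat-shock promoter starts their differentiation together. The same heat shock reaches every other cell of the animal. In a sucrose gradient, messages sediment by the ribosomes they carry. The 80S position holds messages with 1 ribosome along with ribosomes that carry no message, and a longer reading frame has room for more ribosomes. A very short coding sequence can hold few ribosomes at once however often it is translated.

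The 2-3 ribosomes libraries held 8876710 and 5336011 reads at listed 3′ ends, against 5775631 and 5090827 in the 80S libraries. Levels are CPM, counts per 1000000 of these reads, on scaled library sizes, so they are shares within a pool and do not say how much RNA a pool held. The pools were alike in content: across genes, Pearson's r of log2(CPM + 1) was 0.910 between both 2-3 ribosomes libraries, 0.906 between both 80S libraries and 0.869 to 0.909 between the pools, a description only since genes are not independent. The 72 h 60S pool, which shares in the estimate of the spread, stands apart with 1 library of 445049 reads. Testis genes were present in both pools: all 9 tMAC genes, of the spermatocyte transcription complex, were listed, with summed levels of 1613 and 1021 CPM in 2-3 ribosomes and 1210 and 905 CPM in 80S. Markers of other tissues were present as well. The 17 accessory gland genes tested summed to 4413 and 3337 CPM in 2-3 ribosomes, against 9295 and 6201 CPM in 80S. Of these sums, Mst57Db alone held 1707 and 1218 CPM in 2-3 ribosomes and 5393 and 3378 CPM in 80S. The median log2 difference of the 17 genes was -0.03. The 15 muscle genes tested summed to 1309 and 1606 CPM in 2-3 ribosomes, against 1668 and 1729 CPM in 80S. Between pools, such sums compare shares of messages at different gradient positions and do not measure how many cells of a type were present. In bulk samples, fewer cells of a type and less RNA per cell cannot be told apart.

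Very few single genes differed past the threshold, and the clearest was Arc1. Of 8686 genes tested with limma (adjusted p under 0.05, Benjamini-Hochberg over all genes), 1 gene was called, 0.0115% of those tested, and it was lower in 2-3 ribosomes. At an unadjusted p under 0.05 there were 147 genes higher (1.69%) and 221 lower (2.54%). With 2 libraries against 2, 1986 genes (22.9%) had both 2-3 ribosomes values above both 80S values, and 1760 genes (20.3%) had both below. The count depended on which libraries estimate the spread: with the 12 libraries of 48 h there were 34 calls or 0.391% (2 higher, 0.023%, and 32 lower, 0.368%), with the 4 compared libraries alone 90 or 1.04% (18 higher, 0.207%, and 72 lower, 0.829%), and without the 72 h 60S pool 23 or 0.265% (4 higher, 0.0461%, and 19 lower, 0.219%). These 3 sets shared 18 genes. In what follows, a gene named as called passed in the fit that is named with it.

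Arc1 encodes a Gag-like protein that forms virus-like capsids carrying RNA, known from neurons. The gene lies at chr2R:14357927-14360297 (dm6, minus strand), its protein has 254 residues, and its reads ended on average 1321 nt past the stop codon. It had 499 and 663 CPM in 2-3 ribosomes, against 4129 and 3452 CPM in 80S. Both 2-3 ribosomes values lay far below both 80S values, at 0.152-fold (log2 -2.71, SE 0.40, limma adjusted p = 0.00275). The call was lost when either 80S library or 2-3 ribosomes replicate 1 was left out (limma adjusted p = 0.0862 to 0.259), though log2 stayed between -2.91 and -2.55 over the 4 such fits. Along the 48 h gradient it had 902 and 1765 CPM in free RNA, 1843 and 1641 in 40S, 3113 and 2540 in 60S, then the 80S and 2-3 ribosomes values above, and 173 and 159 in 4+ ribosomes. Its level was thus highest in the 80S pool and lowest in the heaviest. Arc2, its neighbour and paralogue, had 11.1 and 18.4 CPM in 2-3 ribosomes and 9.81 and 15.6 CPM in 80S, with overlapping groups.

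**Figure D1:**
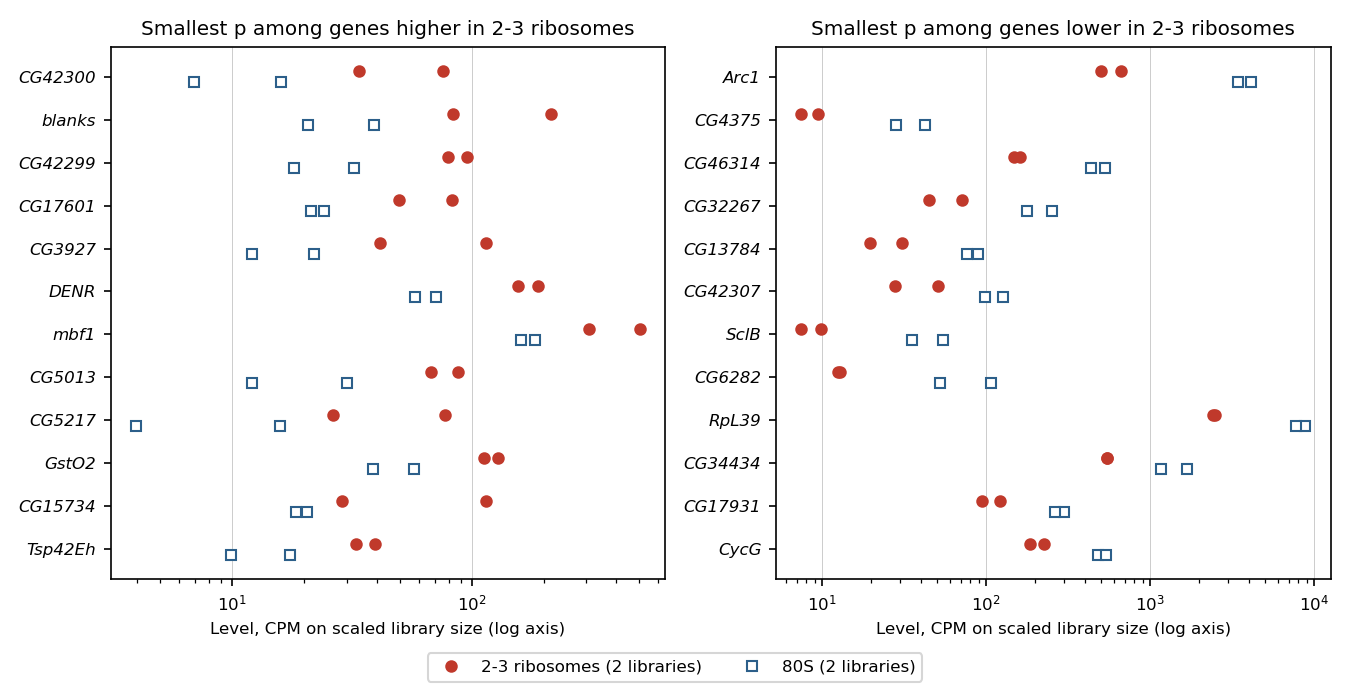
Levels in each library of the 12 genes of smallest p in each direction with a mean of at least 4 on the log2 CPM scale and no overlap between groups. Red circles are the 2-3 ribosomes libraries, open blue squares the 80S libraries, and the horizontal axis is CPM on a log scale; for Arc1 the 2-3 ribosomes values (499 and 663 CPM) lie well left of the 80S values (4129 and 3452 CPM).

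The pattern that ran through many genes was the size of the protein. Genes whose longest protein has under 100 residues were lower in 2-3 ribosomes, with a median log2 difference of -0.47 over the 436 tested of 675 such genes in the fraction files, beside a median of 0.05 over all 8686 genes. Of these 436, 198 (45.4%) were lower without overlap and 32 (7.34%) higher, against 20.3% and 22.9% of all genes. Their reads made up 32.4% and 36.2% of the 2-3 ribosomes libraries and 42.9% and 40.5% of the 80S libraries. The median was -0.44 from the libraries numbered 1 and -0.50 from those numbered 2. In finer bins, chosen after the data were seen, it was -1.37 for the 61 genes under 50 residues, -0.70 for the 139 genes of 50 to 74 and -0.16 for the 236 genes of 75 to 99. Lower without overlap were 72.1% of genes under 50 residues, 54.7% of those of 50 to 74 and 33.1% of those of 75 to 99.

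Above 100 residues the medians lay near 0. They were 0.19 from 100 to under 200 residues, 0.16 from there to under 400, 0.03 from there to under 800 and -0.08 for 800 or more. The relation was therefore not monotonic: Spearman's rho of length with the log2 difference was -0.07 over 8667 genes with a coding length and 0.42 within the 436 genes under 100 residues, both across genes of the same libraries and given as descriptions. Taking out members of the ribosomal protein and tissue marker lists left 416 short genes with a median of -0.46. Against 80S, the 4+ ribosomes pool had a median of -2.16 for genes under 100 residues, and -0.75 from 100 to under 200 residues. The longer class thus had a median below 0 in 4+ ribosomes and above 0 in 2-3 ribosomes. Free RNA against 80S had medians of 0.28 for genes under 100 residues and 0.40 from 100 to under 200. By this median, short genes were thus not highest in the 80S pool.

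**Figure D2:**
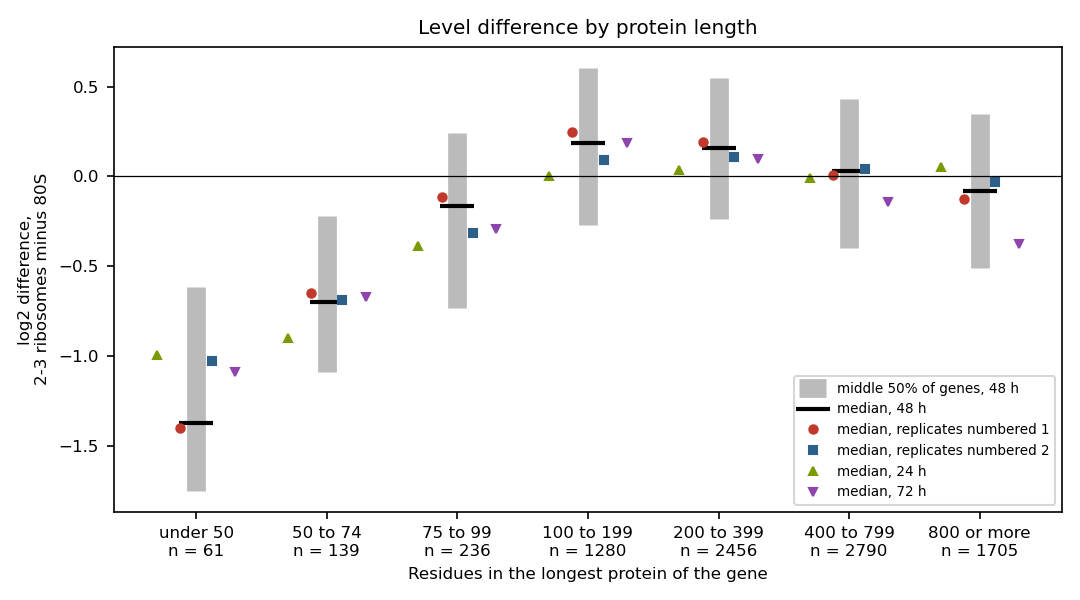
Log2 difference in level, 2-3 ribosomes minus 80S, for genes binned by the residues of their longest protein. Black bars are medians at 48 h, grey bars the middle 50% of genes, circles and squares the medians from the libraries numbered 1 and 2, and triangles the medians at 24 h and 72 h; the 48 h median is -1.37 under 50 residues and 0.19 from 100 to under 200.

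Short genes also made up most of the lower calls in the fits that gave more of them. Genes under 100 residues were 21 of 32 lower calls with the 12 libraries of 48 h, 45 of 72 with the 4 compared libraries and 14 of 19 without the 72 h 60S pool, beside 5.02% of all genes tested. The 2, 18 and 4 higher calls of these fits held none under 100 residues, which is near that share for so few calls. MtnA, a copper-binding metallothionein of 40 residues, had 6923 and 9642 CPM in 2-3 ribosomes, against 46235 and 36612 CPM in 80S. Its log2 difference was -2.33 (SE 1.06), called with the 12 libraries (limma adjusted p = 0.00273) and not in the fit over all 36 fraction libraries. It is also the most abundant of the 6 pigment and terminal epithelium markers tested, which summed to 7164 and 10048 CPM in 2-3 ribosomes and 46589 and 37054 CPM in 80S.

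Some short genes called in these fits encode subunits of large complexes, and they are named after their values were seen. Tom7, of the mitochondrial import pore, has 54 residues and had 1381 and 1352 CPM in 2-3 ribosomes, against 4043 and 3649 CPM in 80S. Sem1, a small proteasome lid subunit of 79 residues, had 550 and 419 CPM, against 2011 and 1367 CPM in 80S. UQCR-6.4, a small subunit of respiratory complex III with 57 residues, had 354 and 386 CPM, against 1000 and 893 CPM in 80S. All 3 were called with the 12 libraries and without the 72 h 60S pool (limma adjusted p from 0.00114 to 0.0250). CG46314, with 26 residues, had 162 and 148.8 CPM, against 534 and 436 CPM in 80S, and CG32267, with 49 residues, had 71.3 and 45.0 CPM, against 252 and 177 CPM in 80S. Dso1, a secreted immune peptide of the Daisho family with 42 residues, had 618 and 1099 CPM in 2-3 ribosomes and 3065 and 3666 CPM in 80S.

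Short size did not go with a lower level in every case. Among abundant short genes, subunits of large complexes were also found with overlapping groups: the splicing proteins SmE (783 and 607 CPM in 2-3 ribosomes, against 749 and 735 CPM in 80S) and SmF (955 and 806 CPM, against 989 and 859 CPM), and ND-MLRQ of respiratory complex I (820.04 and 987 CPM, against 670.2 and 902 CPM). COX7A, of cytochrome oxidase, with 98 residues, had 1050 and 1259 CPM in 2-3 ribosomes, and 1241 and 1108 CPM in 80S. RNASEK, a transmembrane protein of 95 residues, was higher without overlap, at 719 and 781 CPM in 2-3 ribosomes against 569 and 598 CPM in 80S. CG18628, with 63 residues, was the most abundant gene of all 4 libraries, and lay lower without overlap by a small margin, at 290295 and 337514 CPM in 2-3 ribosomes against 401836 and 339316 CPM in 80S (log2 -0.24, SE 1.47). Its unscaled shares of the reads overlapped, at 25.0% and 28.8% in 2-3 ribosomes and 29.1% and 26.9% in 80S. The distance of the 3′ end from the stop codon also went with the difference at 48 h: 596 genes with ends 800 nt or more past the stop had a median of -0.27. They stayed below the genes with nearer ends within each class of protein length (-0.76 in the 24 of them under 100 residues, -0.27 in the 246 of 800 residues or more). At the other times this was not seen: their median was -0.05 at 24 h and -0.03 at 72 h, beside 0.00 and -0.07 for all genes.

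The ribosomal protein genes differed with the size of their products. Of 82 cytoplasmic ribosomal protein genes tested, none was called over 36 libraries, 4 were lower with the 12 libraries of 48 h and 13 lower with the 4 compared libraries. Without overlap 44 were lower (53.7%) and 3 higher (3.66%), beside 20.3% and 22.9% of all genes, and the median was -0.22 (-0.34 without 2-3 ribosomes replicate 1). The 10 under 100 residues had a median of -1.11 with 9 lower without overlap, the 25 of 100 to under 150 residues a median of -0.32 with 17 lower, and the 46 of 150 residues or more a median of -0.09 with 17 lower (1 has no coding length). RpL41, whose protein has 25 residues, had 1875 and 2163 CPM in 2-3 ribosomes, against 9353 and 7530 CPM in 80S (log2 -2.06, SE 0.73). RpL39, with 51 residues, had 2410 and 2499 CPM, against 8857 and 7775 CPM (log2 -1.76, SE 0.53). Both passed with the 12 libraries (limma adjusted p = 0.000769 for RpL41 and 0.00187 for RpL39). RpS27, with 84 residues, had 2319 and 2367 CPM, against 5680 and 5028 CPM in 80S, and RpS25, with 117 residues, had 2217 and 1946 CPM, against 5498 and 3923 CPM. The stalk proteins RpLP1 (3410 and 2391 CPM, against 6251 and 5102 CPM in 80S) and RpLP2 (4732 and 3655 CPM, against 8488 and 6888 CPM) were called with the 4 compared libraries (limma adjusted p = 0.00560 for RpLP1). Longer products went both ways. RpLP0, with 317 residues, had 2223 and 1874 CPM in 2-3 ribosomes, against 3595 and 3050 CPM in 80S. It was also called with the 4 compared libraries (limma adjusted p = 0.0433). RpL7A, with 271 residues, lay at 2223 and 2219 CPM in 2-3 ribosomes and 2119 and 2209 CPM in 80S.

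The testis copies of ribosomal proteins, extra genes of the same families with mostly male germline use, lay on the other side. Of 7 tested, 6 were higher in 2-3 ribosomes without overlap and none lower, beside 22.9% of all genes higher. Their median was 0.98, and 0.63 without 2-3 ribosomes replicate 1. RpS19b had 414 and 327 CPM in 2-3 ribosomes, against 54.3 and 119 CPM in 80S (log2 2.19, SE 1.01), and was called with the 12 libraries (limma adjusted p = 0.00540) but not over 36 libraries. RpS10a had 542 and 354 CPM, against 227 and 218 CPM, and RpS15Ab had 222 and 128 CPM, against 105 and 49.5 CPM. RpL34a did not separate, with 1008 and 865 CPM in 2-3 ribosomes and 957 and 911 CPM in 80S. These copies share sequence with their parent genes, so the split of reads between them is uncertain. All 7 encode 130 residues or more.

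**Figure D3:**
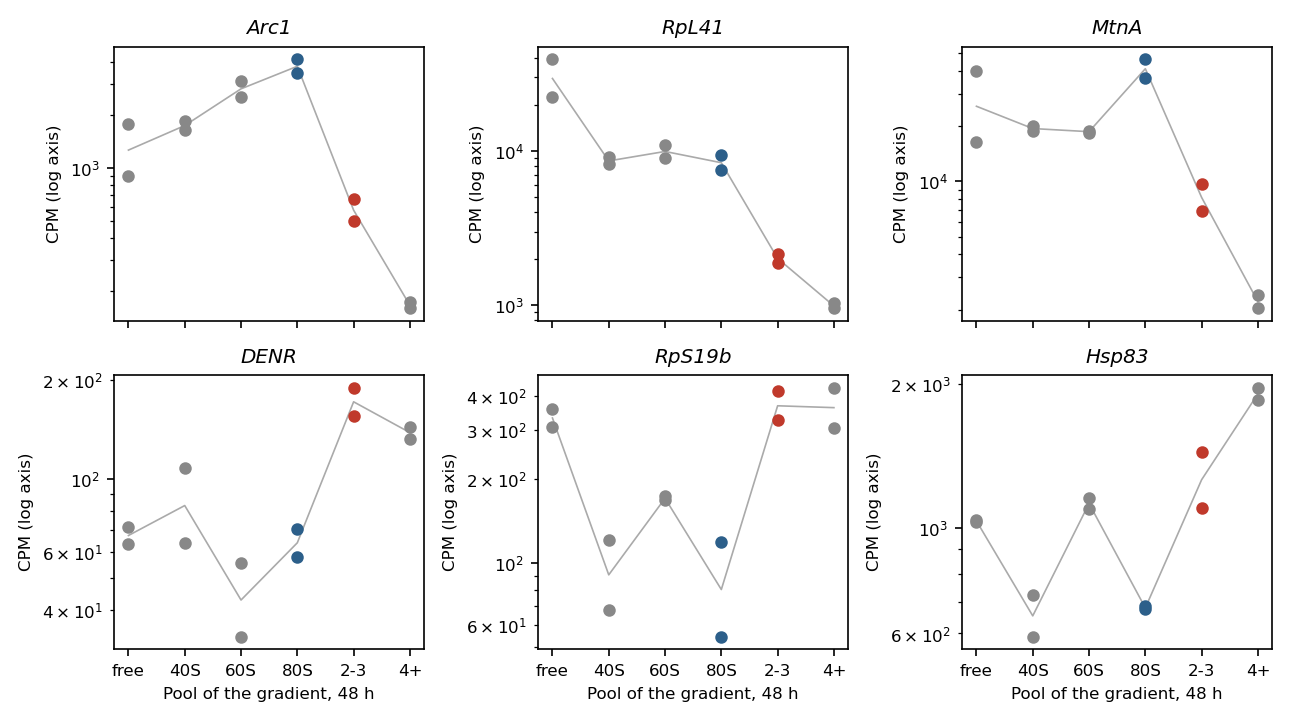
CPM (log axis) of 6 genes in both libraries of each pool of the 48 h gradient, from free RNA to 4+ ribosomes. Red points are 2-3 ribosomes, blue points 80S, grey points the other pools, and lines join the geometric means; Arc1 peaks in 80S, while DENR and RpS19b are higher in 2-3 ribosomes (189 and 155 CPM, and 414 and 327 CPM) than in 80S (70.6 and 57.9 CPM, and 54.3 and 119 CPM).

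Among genes higher in 2-3 ribosomes, none was called over 36 libraries, and those of smallest p missed that threshold. CG42300 had 75.9 and 33.8 CPM in 2-3 ribosomes, against 16.0 and 6.93 CPM in 80S (log2 2.25, SE 0.59, limma adjusted p = 0.706). CG42299, of 182 residues beside the 181 of CG42300, had 95.1 and 79.7 CPM, against 18.2 and 32.2 CPM. The genes lie near each other, at chrX:15555253-15556045 for CG42300 and chrX:15574947-15575683 for CG42299 (dm6), and if their sequences are alike the division of reads between them is uncertain. The testis gene blanks encodes a double-stranded RNA binding protein needed for sperm formation, and had 215 and 83.2 CPM in 2-3 ribosomes, against 39.0 and 20.8 CPM in 80S. DENR, part of a factor that recycles ribosomal subunits and restarts initiation after short upstream frames, had 189 and 155 CPM, against 70.6 and 57.9 CPM (log2 1.42, SE 0.47). It was called without the 72 h 60S pool (limma adjusted p = 0.0461) and with the 4 compared libraries (limma adjusted p = 0.0269). The transcriptional coactivator mbf1 had 503 and 309 CPM, against 184 and 160 CPM, and GstO2, an omega-class glutathione transferase, had 128 and 112 CPM, against 57.2 and 38.8 CPM.

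The genes called as higher with the 4 compared libraries alone had a median of 185 residues, with a range of 108 to 717. Besides DENR and mbf1 they held several abundant housekeeping genes, named here after their values were seen. Sod1, the cytosolic superoxide dismutase, had 1795 and 1415 CPM in 2-3 ribosomes, against 863 and 795 CPM in 80S. Ran, the nuclear transport GTPase, had 562 and 539 CPM, against 268 and 272 CPM. The actin-severing cofilin tsr had 2087 and 1680 CPM, against 961 and 1088 CPM. Each of these genes was above both 80S libraries in both 2-3 ribosomes libraries.

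Longer proteins were also found among the lower genes. Of the 221 genes lower at an unadjusted p under 0.05, 174 encode 100 residues or more and 47 fewer. The genes tested numbered 8231 and 436 in these classes, so lower genes were more frequent among the short ones. CycG, a cyclin of 566 residues, had 186 and 227 CPM in 2-3 ribosomes, against 481 and 535 CPM in 80S (log2 -1.30, SE 0.40), and was called with the 12 libraries (limma adjusted p = 0.0445). CG34434, with 460 residues, had 545 and 547 CPM, against 1677 and 1164 CPM in 80S, and 917 and 666 CPM in 4+ ribosomes. Its reads lay mostly at a site upstream of every annotated stop codon. That site held 3831 and 2417 reads in 2-3 ribosomes, beside 337 and 74 at the distal site. In 80S it held 6982 and 4658 reads, beside 27 and 46. The levels of CG34434 therefore cannot stand for messages with the full reading frame. Its summed level dipped between the 80S and 4+ pools, while its lowest levels were in the light pools, with 238 and 377 CPM in free RNA. CG13784, with 969 residues, had 30.8 and 19.5 CPM, against 89.2 and 76.7 CPM. The transcription factor crc, the fly ATF4, whose leader is known for upstream reading frames, had 43.0 and 49.8 CPM, against 114 and 112 CPM (log2 -1.29, SE 0.40), and was called with the 4 compared libraries only (limma adjusted p = 0.0443). It was named after its values were seen.

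Proteasome genes, whose products degrade ubiquitin-tagged proteins, lay above the median gene. Of 41 tested none was called over 36, 12 or 4 libraries, while 23 (56.1%) were higher without overlap and none lower, beside 22.9% and 20.3% of all genes. The median was 0.52, with 0.73 from the libraries numbered 1 and 0.23 from those numbered 2, and 0.19 without 2-3 ribosomes replicate 1. Prosbeta2, a catalytic subunit, had 702 and 422 CPM in 2-3 ribosomes, against 306 and 235 CPM in 80S. Rpn1, a base subunit, had 307 and 291 CPM, against 121 and 182 CPM. Rpt3R, a testis copy of an ATPase subunit, had 62.1 and 25.7 CPM, against 9.81 and 13.4 CPM. Sem1, described above, was not matched by the names that define this list.

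Mitochondrial ribosomal proteins had a median of 0.27, with 33 of 71 higher (46.5%) and 7 lower (9.86%) without overlap, beside 22.9% and 20.3% of all genes. Without 2-3 ribosomes replicate 1 the median was 0.09. mRpL3 had 55.8 and 42.3 CPM in 2-3 ribosomes, against 22.7 and 30.4 CPM in 80S, while mRpS5 was lower without overlap (log2 -1.14, SE 0.67, not called). The 82 respiratory chain and ATP synthase genes were mixed, with 27 higher (32.9%) and 19 lower (23.2%) without overlap. Their median of 0.13 was -0.04 without 2-3 ribosomes replicate 1 and 0.01 without 80S replicate 2. The spread there included ATPsynGL, a testis copy of an ATP synthase subunit with 141 and 43.2 CPM in 2-3 ribosomes, against 29.7 and 12.6 CPM in 80S. Of 41 initiation factors, 12 (29.3%) were higher and 6 (14.6%) lower without overlap, shares near those of all genes, around a median of 0.09 that was -0.03 without 2-3 ribosomes replicate 1. eIF1A, which helps the small subunit scan, had 284 and 289 CPM, against 143 and 160 CPM in 80S.

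The 17 heat shock genes tested had 9 higher (52.9%) and 1 lower (5.88%) without overlap, beside 22.9% and 20.3% of all genes, and a median of 0.32 (0.55 without 2-3 ribosomes replicate 1). The inducible chaperone Hsp68 had 118 and 135 CPM in 2-3 ribosomes, against 29.7 and 52.0 CPM in 80S. Hsp83, the fly Hsp90, had 1440 and 1101 CPM, against 674 and 684 CPM, and 1963 and 1849 CPM in 4+ ribosomes. Hsp26, a small chaperone, had 3221 and 1934 CPM, against 1315 and 1171 CPM. These 3 were called with the 4 compared libraries (limma adjusted p = 0.0301 to 0.0429) and not with more libraries. The exception was Hsc70-3, the endoplasmic reticulum chaperone BiP, with 422 and 730 CPM in 2-3 ribosomes against 949 and 781 CPM in 80S.

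**Figure D4:**
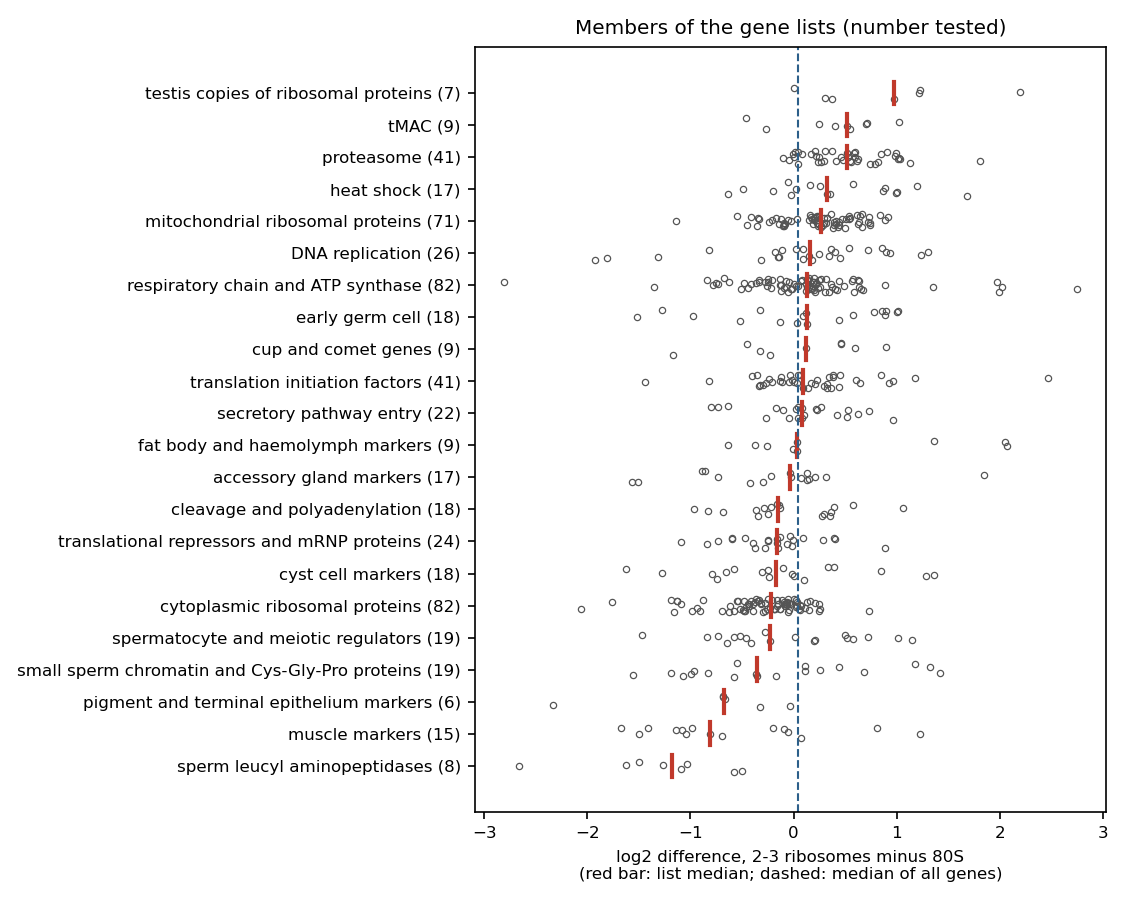
Log2 difference, 2-3 ribosomes minus 80S, of each tested member of the gene lists with at least 6 members tested. Circles are genes, red bars list medians and the dashed line the median of all genes (0.05); testis copies of ribosomal proteins lie highest (0.98) and sperm leucyl aminopeptidases lowest (-1.18).

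Genes of late spermatogenesis were low in both pools at 48 h. The 8 sperm leucyl aminopeptidases, abundant proteins of the sperm mitochondrial derivative, summed to 161 and 60.8 CPM in 2-3 ribosomes, against 260 and 177 CPM in 80S. Of these, 6 were lower without overlap and none higher, beside 20.3% and 22.9% of all genes, with a median of -1.18 (-1.97 without 2-3 ribosomes replicate 1). S-Lap8 had 36.4 and 18.0 CPM, against 71.3 and 43.8 CPM. The 19 small sperm chromatin and Cys-Gly-Pro genes had 1 higher and 2 lower without overlap, and their median changed sign between the libraries numbered 1 (0.05) and 2 (-0.77). Mst87F, one of the Cys-Gly-Pro proteins of the sperm tail, had 20.4 and 10.3 CPM, against 37.6 and 24.0 CPM in 80S, and 646 and 196 CPM in free RNA.

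Regulators of the spermatocyte program did not move as a block. The counts in these lists stand beside 22.9% of all genes higher and 20.3% lower without overlap, and several are close to those shares. Of 9 tMAC genes, 4 were higher and 1 lower without overlap, with a median of 0.52 that was 0.17 without 2-3 ribosomes replicate 1. In it vis, a homeodomain subunit, had 96.8 and 70.4 CPM in 2-3 ribosomes, against 62.0 and 26.2 CPM in 80S, whereas aly had 315.2 and 199.2 CPM, against 393 and 302 CPM, with overlap. Of 19 spermatocyte and meiotic regulators, 5 were higher and 8 lower without overlap, around -0.23. Rbp4, an RNA-binding protein of spermatocytes, had 258 and 119 CPM, against 77.0 and 97.5 CPM in 80S. Its partner fest had 2528 and 3250 CPM, against 4248 and 4287 CPM. The translational repressors and mRNP proteins had 3 of 24 higher and 9 lower without overlap, with a median of -0.16 (0.02 under total count scaling, where the median of all genes was 0.23). pAbp, the poly(A)-binding protein, had 2249 and 2502 CPM, against 3591 and 3601 CPM in 80S. The early germ cell, DNA replication and secretory pathway lists had medians of 0.13, 0.16 and 0.08, each between 0.00 and 0.35 over the alternatives. Of 18 cleavage and polyadenylation genes, 3 were higher and 5 lower without overlap, with a median of -0.15 (0.04 under total count scaling). Of 4 testis TAFs 1 was higher, of 9 cup and comet genes 2 were higher and 1 lower, and of 3 axonemal dynein and Y-linked genes 1 was lower without overlap.

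Muscle markers stood lower in 2-3 ribosomes, with 8 of 15 lower (53.3%) and 1 higher (6.67%) without overlap, beside 20.3% and 22.9% of all genes, and a median of -0.81 (-1.02 from the libraries numbered 1 and -0.30 from those numbered 2). Mlc2, the myosin regulatory light chain, had 68.7 and 82.7 CPM in 2-3 ribosomes, against 244 and 239 CPM in 80S, and was called with the 12 libraries (limma adjusted p = 0.0241). Of the 17 accessory gland markers, 5 were lower and 1 higher without overlap, with a median of -0.03 (0.16 under total count scaling, where the median of all genes was 0.23). Mst57Db, a seminal peptide of 40 residues, had 1707 and 1218 CPM, against 5393 and 3378 CPM in 80S. Cyst cell markers, for the somatic cells that enclose the germline, had 4 of 18 higher and 5 lower, around -0.17 (0.01 under total count scaling), and fat body and haemolymph markers 3 of 9 higher and 1 lower, around 0.03. Over the alternatives, single replicates left out included, these medians ranged from -0.35 to 0.24 for accessory gland, -0.26 to 0.09 for cyst cells and -0.28 to 0.30 for fat body and haemolymph. Of the marker names in the files, all 4 libraries listed 14 of 16 for muscle, 16 of 17 for accessory gland, 16 of 20 for cyst cells and 6 of 16 for fat body and haemolymph, where the larval storage protein genes Lsp1alpha, Lsp1beta and Lsp2 and also Fbp1 and PPO1 were unlisted in all 4. The part of these other cell types in the differences above was not tested.

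The same contrast was measured at 24 h and 72 h in libraries of their own. Arc1 was lower at both: 600.7 and 872 CPM in 2-3 ribosomes against 2921 and 4050 CPM in 80S at 24 h (log2 -2.25, limma adjusted p = 0.0337, among 2 calls or 0.0253% of genes), and 851 and 619 CPM against 2994 and 2868 CPM at 72 h (log2 -2.01, limma adjusted p = 0.0232, among 30 calls or 0.314%). RpL41 had 1543 and 2097 CPM, against 5398 and 7143 CPM in 80S, at 24 h, and 2500 and 1892 CPM, against 7242 and 9772 CPM in 80S, at 72 h. DENR had 105 and 116 CPM, against 64.8 and 66.8 CPM in 80S, at 24 h, and 233 and 255 CPM, against 86.1 and 82.4 CPM in 80S, at 72 h. The median of genes under 100 residues was -0.62 at 24 h and -0.52 at 72 h, beside medians of all measured genes of 0.00 and -0.07. Of the 12 lower genes named by smallest p, 11 were lower at 24 h and 12 at 72 h, beside 49.9% and 53.8% of all genes lower. Of the 12 higher ones, 8 of the 8 tested at 24 h and 10 of 12 at 72 h were higher, beside 50.1% and 46.2% of all genes. Some list medians were not kept at 72 h. Muscle markers had -0.24 at 24 h and 0.02 at 72 h, cytoplasmic ribosomal proteins -0.31 and 0.099, and tMAC genes 0.14 and 0.01. Testis copies of ribosomal proteins (0.71 and 0.98), proteasome (0.21 and 0.35) and heat shock genes (0.44 and 0.41) stayed above 0. RpLP2 had a log2 of -0.85 at 24 h and 1.39 at 72 h. Hsp26 overlapped at 72 h, with 3777 and 111 CPM in 2-3 ribosomes against 3178 and 2126 CPM in 80S.

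No gene's difference was shown to depend on the time. A limma test of the change in difference called 0 of 9131 genes for 48 h against 24 h (222, or 2.43%, at an unadjusted p under 0.05) and 0 of 10005 for 48 h against 72 h (396, or 3.96%, at an unadjusted p under 0.05), and no other setting tried called any. For Arc1 the difference at 48 h minus that at 24 h was -0.47, and minus that at 72 h -0.70 (limma adjusted p = 1.00 for both). Across genes, Spearman's rho of the 48 h difference was 0.25 with that at 24 h and 0.25 with that at 72 h, beside 0.28 between the differences from the libraries numbered 1 and 2 at 48 h. These points share genes, lengths and annotation and are a description only.

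The choice of 3′ end was compared for 3182 genes with 2 sites of the same deposited entry. Each compared library had at least 30 reads at the pair. On the minus strand the entries sit at the start codon, so the 2 sites of a pair need not follow the same stop codon. In at least 1 of the compared pools, each site held at least 5% of the reads of the pair. Some sites lay upstream of every annotated stop codon, as did the proximal sites of CG34434 and CG2811. limma called 0 pairs, with 223 (7.01%) at an unadjusted p under 0.05 (90 towards the proximal and 133 towards the distal site in 2-3 ribosomes). Without overlap, 667 pairs (21.0%) lay towards the distal and 429 (13.5%) towards the proximal site in 2-3 ribosomes, and the median log2 ratio of proximal to distal reads was lower by 0.15 (-0.17 and -0.10 from the libraries numbered 1 and 2). Among the 576 pairs over 600 nt apart, 145 lay towards the distal and 66 towards the proximal site, and the median use of the proximal site was 57.6% and 56.5% in 2-3 ribosomes, against 61.8% and 61.5% in 80S.

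The pair of smallest p was in CG42240 on the X chromosome, whose sites end at positions 6332628 and 6333022 (dm6, plus strand), 394 nt apart. The proximal site took 46.5% and 60.0% of the reads of the pair in 2-3 ribosomes (165 and 93 reads, beside 190 and 62 at the distal site), against 91.9% and 89.7% in 80S (192 and 165 reads, beside 17 and 19). The groups did not overlap, at log2 -3.13 (SE 0.60, limma adjusted p = 0.0788). The pair passed when 60 reads were required (limma adjusted p = 0.0386) or unlisted sites were set to 9 reads (limma adjusted p = 0.0342). It did not pass with the 12 libraries of 48 h (limma adjusted p = 0.285) or the 4 compared libraries (limma adjusted p = 0.275). Nor did it pass with 10 reads required (limma adjusted p = 0.161). CG1910 had 68.9% and 60.7% proximal use in 2-3 ribosomes, against 92.5% and 92.3% in 80S, for sites 674 nt apart. In the other direction, CG44329 had 90.0% and 91.8% proximal use, against 61.8% and 65.9% in 80S, for sites 109 nt apart, and nAChRalpha6, an acetylcholine receptor subunit, had 310 and 275 proximal reads and no listed distal ones in 2-3 ribosomes, where a site under 10 reads is unlisted, against 69 and 93 proximal and 15 and 18 distal reads in 80S. The 5 pairs (0.157%) called with the 4 compared libraries (Chchd2, alph, CG13585, CG11327 and CCT5) have sites only 51 to 75 nt apart, where no pair is nearer than 51 nt, and in each of them 1 site was unlisted in both libraries of a pool.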

How the data were processed

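The authors deposited, per fraction library, whole-number read counts at 3′ end positions joined to stop codon entries; this unit is listed as other because positions and counts are packed in a field, and the lowest count listed was 10. Per the labels' protocols, libraries were made with a QuantSeq 3′ forward kit from polysome gradient pools; per the submitters' processing notes, Bowtie 0.12.8 and dm6 were used. Site counts were summed per gene. Unlisted genes in a library were set to 5 reads. A gene was tested if at least 1 of the compared groups listed it in each library, and the test was limma 3.58.1 (voom weights, trimmed-mean scaling, robust variance, R 4.3.3) with all 36 fraction libraries sharing the spread, and Benjamini-Hochberg adjustment over all genes. Site pairs were tested as log2 ratios weighted by reads. Distances past the stop codon were counted from the entry on the plus strand. On the minus strand, where entries sit at the start codon, they were counted from the nearest annotated stop before each site. CPM values use scaled library sizes. Protein lengths and gene positions came from an Ensembl annotation of the same assembly (11977 of 11997 genes matched). No overlap means that both values of a pool lie beyond both of the other, and an exact permutation test of 2 against 2 cannot go below 0.333 two-sided. Both scripts were tested on simulated data. Genes named are the 12 of smallest p in each direction with a mean log2 CPM of at least 4 and no overlap, up to 4 per list by size of difference, and 6 site pairs each way over 100 nt apart; others are said to be chosen after their values were seen, as are the abundant short genes, some list members and the genes of alternative fits. The groups, lists and this comparison were chosen with earlier results of these data known. Alternatives were other library sets, scalings, filters, values for unlisted genes, limma-trend, leaving out each replicate, and a replicate block. Same-numbered 48 h libraries of the pools do not share a stated batch. Whole lysate samples were not used here.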

Additional observations from a re-analysis of the deposited data

How the results depend on the processing

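Calls over all genes numbered 1 with 36 libraries, 34 with the 12 libraries of 48 h, 90 with the 4 compared libraries and 23 without the 72 h 60S pool, and 0 to 3 when single replicates were left out; scaling, filters, values for unlisted genes and limma-trend gave 1. Site pairs called were 0, but 1 with 12 libraries, 5 with 4 libraries, 1 with 60 reads required, 1 with unlisted sites at 9 reads, and 0 to 4 when replicates were left out. The median of genes under 100 residues minus that of all genes was -0.52, -0.47 without a filter, -0.50 with limma-trend and -0.59 to -0.35 without single replicates. Lists with a median above that of all genes numbered 12, and 10 to 14 without single replicates. The cause of these shifts was not tested. The median of all genes was 0.05, 0.23 under total counts and 0.13 under median of ratios. Medians of the accessory gland, cyst cell, cleavage and polyadenylation, and repressor lists changed sign with total counts, as that scaling moves all genes alike, and stayed below the median of all genes. With a replicate block 1 gene was called (389 at an unadjusted p under 0.05); deviations of same-numbered 48 h libraries correlated at 0.018 to 0.302 over 15 pairs of pools, all above 0 and 10 over 0.1 (0.150 for the compared pools). The labels do not say that a number marks a shared gradient, so whether the numbers pair the samples is not settled. Of the named genes' alternative values, 48 newly passed, 3 no longer passed (Arc1 without single replicates) and 0 turned round. Depth limits genes near 10 reads a library.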
